A study of Arabidopsis thaliana with 103 samples.

Results

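The sites occupied by Myc-tagged MORC6 were compared between plants that had lost untagged MORC6 and plants that still had it. The comparison rests on 5 of the 103 samples of the series, which are 5 of its 18 ChIP-seq peak lists. 3 lists came from T2 lines 1, 2 and 3 (second-generation transformants) carrying MORC6-Myc in the *morc6* background, and 2 came from T2 lines 1 and 2 carrying MORC6-Myc in the Col-0 background. The transgene was a genomic MORC6 fragment with its own promoter and a C-terminal Myc tag. The *morc6-3* recipient is a T-DNA insertion allele, so tagged protein is the intended source of MORC6 there, whereas the wild-type Col-0 recipient keeps its own untagged gene. All lines are of the Columbia-0 ecotype, were sampled as unopened flower buds of one-month-old plants, and were precipitated with an anti-Myc antibody. Each line gave 1 library and counts as 1 replicate, and the transgene level of the lines was not analysed here. Per the reporting summary, compared plants were grown next to each other. Whether the lines were precipitated together is not given in the sources used here, so p-values measure the spread between these libraries only.

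MORC proteins are ATPases of the GHKL type that act in gene silencing and chromatin compaction. In Arabidopsis, MORC6 works together with other MORC proteins and is linked to RNA-directed DNA methylation (RdDM), the pathway in which small RNAs and the plant-specific RNA polymerases Pol IV and Pol V direct the methyltransferase DRM2 to transposons and repeats. The MOM1 complex, which holds MOM1, MOM2, PIAL1, PIAL2, PHD1 and AIPP3, acts in the same silencing system. A tagged protein that must share its sites with an untagged copy could in principle be found at fewer places or at lower enrichment, which is the question that the pair of backgrounds addresses.

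Peak positions were given by the authors on TAIR10, and each stretch printed here is 160 bases centred on the summit of a site and was read from RefSeq's TAIR10.1 on the plus strand from 5′ to 3′. The sequences are given because the results turn on these sites. The first pair belongs to the sites with the highest enrichment in every line, the next pairs to sites called in one background only, and the last stretch to a site called in every line with unequal enrichment. Capitals mark CG dinucleotides, the context of DNA methylation that is kept through replication.
Between AT2G12461 and AT2G12462, all lines, chr2:5049497-5049656: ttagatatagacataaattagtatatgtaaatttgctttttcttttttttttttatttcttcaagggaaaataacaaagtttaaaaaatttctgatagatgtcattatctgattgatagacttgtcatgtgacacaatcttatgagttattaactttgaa
AT3G44410 region, all lines, chr3:16056066-16056225: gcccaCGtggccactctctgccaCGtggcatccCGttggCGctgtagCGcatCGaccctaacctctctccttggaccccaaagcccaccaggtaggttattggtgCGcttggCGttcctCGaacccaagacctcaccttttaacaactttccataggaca
AGL83, morc6 lines only, chr5:20076540-20076699: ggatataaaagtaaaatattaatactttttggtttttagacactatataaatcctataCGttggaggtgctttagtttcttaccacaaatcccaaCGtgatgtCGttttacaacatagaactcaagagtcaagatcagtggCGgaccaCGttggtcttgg
AT2G04080, morc6 lines only, chr2:1359759-1359918: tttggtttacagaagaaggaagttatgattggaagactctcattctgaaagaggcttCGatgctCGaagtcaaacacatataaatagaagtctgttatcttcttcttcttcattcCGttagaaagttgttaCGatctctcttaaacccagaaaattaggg
WRKY59, Col-0 lines only, chr2:9333567-9333726: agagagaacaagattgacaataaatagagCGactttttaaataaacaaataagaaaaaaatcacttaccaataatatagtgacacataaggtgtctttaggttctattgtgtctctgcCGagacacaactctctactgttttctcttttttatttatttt
AT1G55380, Col-0 lines only, chr1:20679126-20679285: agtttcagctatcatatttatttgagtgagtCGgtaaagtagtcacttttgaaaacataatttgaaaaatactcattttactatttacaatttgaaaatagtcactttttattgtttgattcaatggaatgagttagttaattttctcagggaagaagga
AO1, higher in Col-0 lines, chr5:7115329-7115488: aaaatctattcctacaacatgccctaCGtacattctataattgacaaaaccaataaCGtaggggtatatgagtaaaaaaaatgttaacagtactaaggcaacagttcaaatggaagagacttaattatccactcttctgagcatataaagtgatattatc
The first window has no CG and 22.5% G and C, whereas the second has 9 CG and 57.5% G and C, although both sites were near the top of every list. Over all sites called in the 5 lines, the 300 bases around the summit had a median G and C content of 33.0% (34.7% at sites of the *morc6* lines only and 32.7% at sites of the Col-0 lines only), compared with 32.0% in promoters of protein-coding genes and 36.3% in windows placed every 2000 bases along the genome. Sequence that recurs elsewhere was more frequent at sites than at promoters. On average 13.8% of the 32-base words in a window of a site called in all lines occurred elsewhere in the genome, against 2.74% in promoters and 8.43% in the genome windows. The word GAGAGAGA or its reverse complement was found in 11.7% of the windows called in all lines and in 46 of the 131 windows (35.1%) whose lowest fold enrichment over the 5 lines was at least 10, while 8.38% of promoters and 4.63% of genome windows held it. The telo box AAACCCTA was in 5.58% of windows called in all lines, 6.22% of promoters and 3.91% of genome windows, on either strand. The G-box CACGTG was in 7.61%, 7.68% and 3.29%, and the site II element TGGGCC in 13.5%, 15.5% and 4.49%. These matches are descriptions of letters in a window and not of bound factors.

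Both backgrounds gave broad and overlapping sets of MORC6-Myc peaks, and the number of peaks varied more between lines of one background than between backgrounds. In the *morc6* background lines 1, 2 and 3 had 8006, 13430 and 9308 peaks on the nuclear chromosomes, and in the Col-0 background lines 1 and 2 had 8958 and 13359. In each background line 2 had the most peaks, and the groups overlapped. The means were 10248 ± 2832 (SD, n = 3) and 11159 ± 3112 (SD, n = 2), with an exact permutation p of 0.8 (two-sided). With 3 lines against 2 there are 10 splits and the smallest p this design allows is 0.1, so none of the comparisons over lines could reach 0.05. The lists give no read numbers. The reporting summary gives read totals for these libraries, which were not used here. The part of depth in the number of peaks was not tested.

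**Figure D1:**
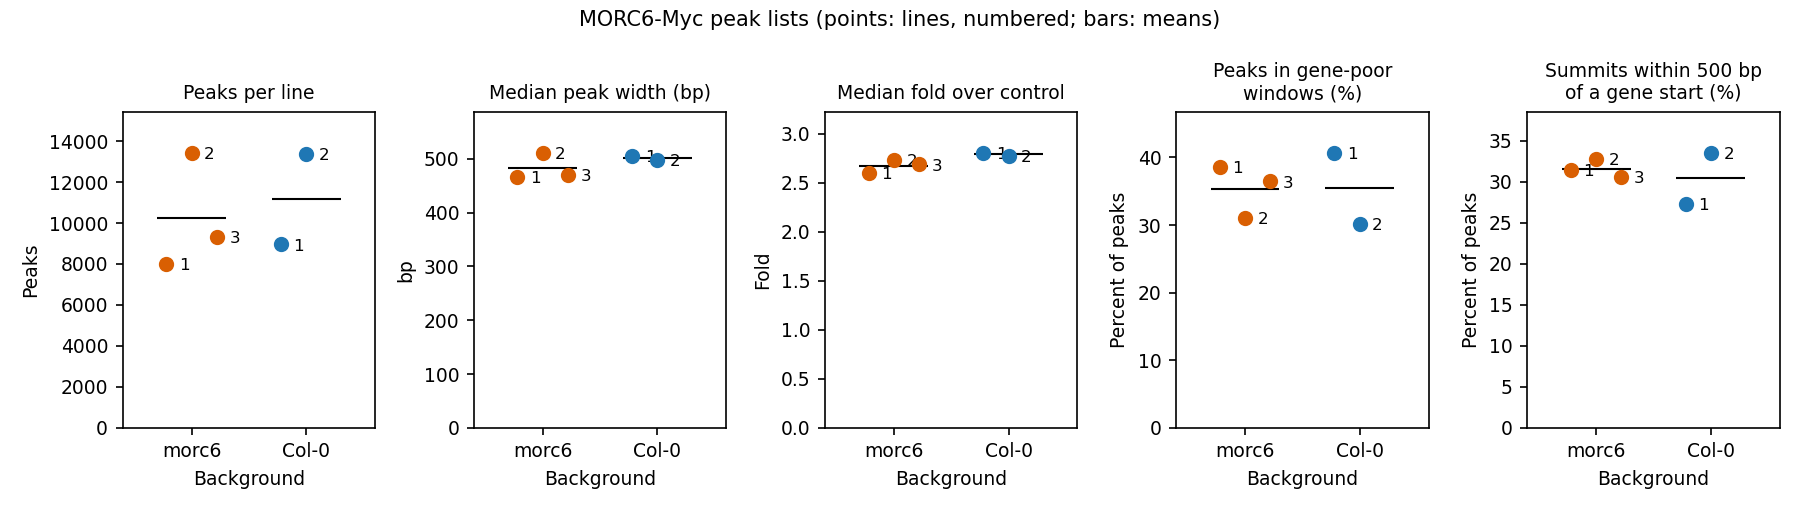
Number of peaks, median width (bp), median fold enrichment over the control, percent of peaks in gene-poor windows and percent of summits near a gene start, for each T2 line (points, by background on the x axis). The 2 backgrounds overlap in every panel except the median fold, where the *morc6* lines lie at 2.60 to 2.73 and the Col-0 lines at 2.78 and 2.80.

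Peak shape and position were similarly spread. The median peak width was 466, 511 and 470 bp in *morc6* lines 1, 2 and 3 and 505 and 498 bp in Col-0 lines 1 and 2 (exact permutation p = 0.4, two-sided). The median fold enrichment over the control was 2.60, 2.73 and 2.69 in the *morc6* lines and 2.80 and 2.78 in the Col-0 lines. Here the groups did not overlap, with a difference of -0.12 between the means and an exact permutation p of 0.2. The shares of peaks in gene-poor windows, which are the 51 windows of 500 kb (21.4% of the genome) with under 40% of bases in protein-coding genes and include the pericentromeres, were 38.6%, 31.0% and 36.5% in the *morc6* lines and 40.7% and 30.2% in the Col-0 lines (exact permutation p = 1). Line 2 of either background, which had the most peaks, had the lowest share of its background. Summits within 500 bp of the start of a protein-coding gene made up 31.4%, 32.8% and 30.6% of peaks in the *morc6* lines and 27.3% and 33.5% in the Col-0 lines (exact permutation p = 0.8). After Benjamini-Hochberg adjustment over these 5 exact permutation tests every p was 1.

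The single highest fold was close between lines, whereas the number of strong peaks was not. The highest fold in a list was 16.8, 16.8 and 17.9 in the *morc6* lines and 18.1 and 18.0 in the Col-0 lines. Peaks with a fold of at least 5 numbered 1057, 2436 and 1439 in the *morc6* lines and 1565 and 2362 in the Col-0 lines. When every list was reduced to its 8006 peaks with the highest −log10 q, the median fold was 2.60, 3.70 and 2.91 in the *morc6* lines and 3.01 and 3.69 in the Col-0 lines, so that the groups overlapped. The median widths of these peaks were 466, 695 and 519 bp and 543 and 666 bp.

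Merging the peaks of the 5 lines where they overlapped by at least 1 bp gave 15295 sites, of which 5912 (38.7%) were called in every line and 11390 (74.5%) in at least 1 line of each background. The sites of all lines were the widest and most enriched, with a median width of 892 bp and a median of the highest fold of 4.70, compared with 532 bp and 2.74 over all sites. Width is that of the merged peaks, and the highest fold is taken over the lines that called the site. Larger values at sites of more lines follow in part from these definitions. The next most frequent combination was *morc6* line 2 with Col-0 line 2, which alone shared 1916 sites. A further 1661 sites were called only in *morc6* line 2 and 1392 only in Col-0 line 2. Sites called in all 3 *morc6* lines and neither Col-0 line numbered 34, with a median width of 626.5 bp. Sites called in both Col-0 lines and no *morc6* line numbered 210, with a median width of 416.5 bp. A site must be called in more lines to enter the first of these groups than the second, so their sizes cannot be compared directly. Both counts depended on single lines. Leaving out a line drops a condition of the pattern, so a count could rise but hardly fall, and only the size of the rise is informative. Without Col-0 line 2 there were 584 sites of the *morc6* lines only, without *morc6* line 1 147, and without *morc6* line 3 83. Without Col-0 line 1 there were 1619 sites of the Col-0 line only, without *morc6* line 2 863, and without Col-0 line 2 433. With lists of equal size the counts were 120 and 212.

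**Figure D2:**
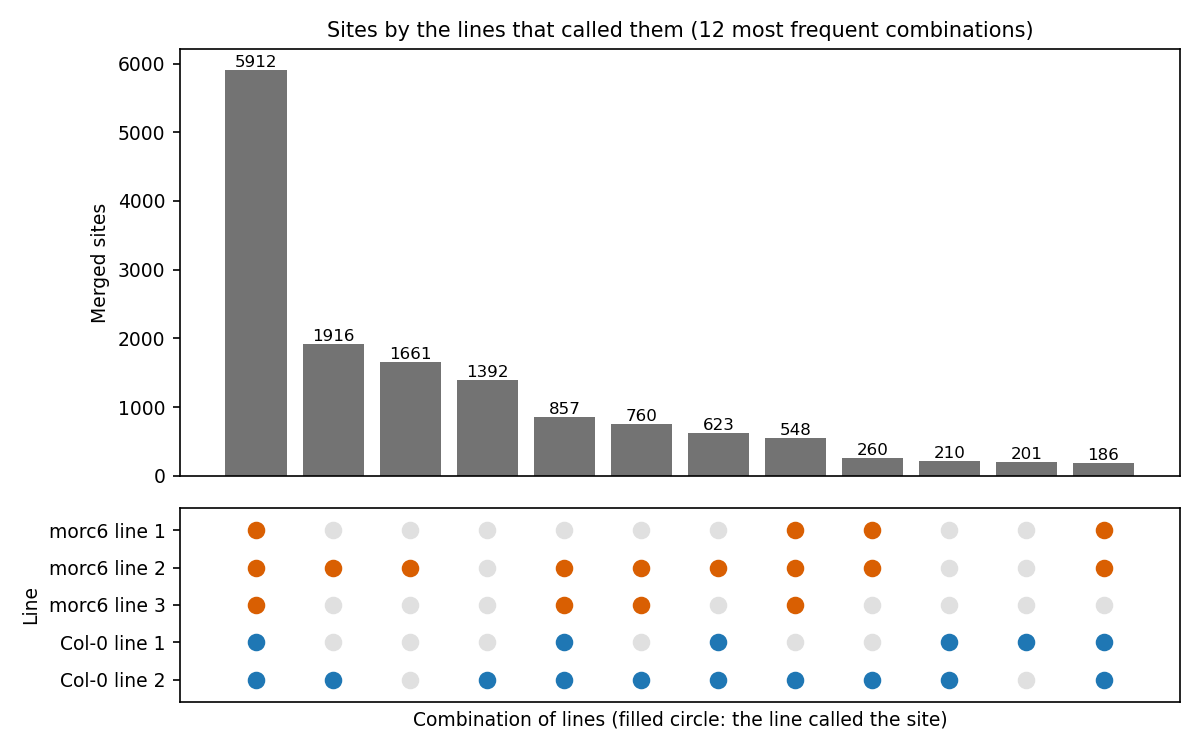
Number of merged sites (y axis) for the 12 most frequent combinations of lines, with filled circles below each bar for the lines that called the sites. The 5912 sites of all 5 lines form the highest bar, followed by the 1916 of *morc6* line 2 with Col-0 line 2.

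The overlap of pairs of lists followed their length. Of the peaks of *morc6* line 1, 96.8% overlapped a peak of *morc6* line 2 and 96.1% one of Col-0 line 2, whereas 90.2% overlapped one of *morc6* line 3 and 84.9% one of Col-0 line 1. In the other direction, 53.3% of *morc6* line 2 peaks and 54.0% of Col-0 line 2 peaks overlapped *morc6* line 1. Between both longest lists, 84.9% of *morc6* line 2 peaks overlapped Col-0 line 2 and 86.8% of Col-0 line 2 peaks overlapped *morc6* line 2. With lists of equal size, pairs within a background overlapped by 80.9% to 89.8% and pairs between backgrounds by 78.5% to 87.0%, so the ranges overlapped. The 5912 sites called in all lines are not independent replicates, and the lists may share a control. Across these sites the log2 fold of 2 lines correlated with a Pearson r of 0.93 to 0.94 within the *morc6* background. The r was 0.92 within Col-0 and 0.89 to 0.92 between backgrounds.

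The private sites of *morc6* line 1 had a feature that those of the other lines lacked. Of its 180 private sites, 156 lay between positions 3244730 and 3509617 of chromosome 2 on TAIR10, a stretch known to hold an insertion of the mitochondrial genome, with a median fold of 1.48. The other lines had 1 to 11 private sites between 3 and 4 Mb of this chromosome. The list of *morc6* line 1 also held 461 rows on the mitochondrial genome, against 0 to 15 in the other lists, and the part of mitochondrial reads in these sites was not tested. Without this megabase, 5846 sites were called in all lines, and the 34 and 210 sites of one background only were unchanged in number.

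Sites in gene-poor windows made up 38.5% of the sites of all lines, 32.4% of those of the *morc6* lines only and 33.8% of those of the Col-0 lines only, compared with 29.9% of all sites. Summits near a gene start made up 30.3%, 38.2% and 21.9%, compared with 33.6% of all sites. Of the sites called in all lines, 75.7% had their summit between annotated genes. PIAL2-Myc is a tagged SUMO ligase of the MOM1 complex, and its replicate 1 list overlapped 52.7% of the sites of all lines, 5 of the 34 sites of the *morc6* lines only, 8 of the 210 sites of the Col-0 lines only and 37.9% of all sites. MORC6-Myc lists from *pial1/2* lines 1, 2 and 3, which lack both PIAL ligases, held 1151, 1348 and 1215 peaks. These lists overlapped 13.8%, 17.9% and 14.3% of the sites of all lines, beside 6.71%, 8.19% and 7.25% of all sites. They overlapped 3 of the 34 sites of the *morc6* lines only (8.82%) in each list. Of the 210 sites of the Col-0 lines only, they overlapped 1, 1 and 4 (0.476%, 0.476% and 1.90%). These shares describe the lists and were not tested.

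The sites named here for all lines were chosen by the highest minimum fold over the 5 lines, so high values in both backgrounds follow from the rule and are a description. The first site was chr2:5047778-5055333, over the protein-coding genes AT2G12461 and AT2G12462, with folds of 16.8, 16.8 and 17.8 in *morc6* lines 1, 2 and 3 and 18.0 and 17.9 in Col-0 lines 1 and 2. The site at chr2:4003776-4010556 covered 5 pseudogenes including SADHU1-1, a member of a family of non-coding retrotransposons, and shared the highest −log10 q of *morc6* line 2 with 5 other sites and that of Col-0 lines 1 and 2 with 3 other sites each. Its folds were 16.7, 16.8 and 17.9 in the *morc6* lines and 18.1 and 18.0 in the Col-0 lines. The site at chr1:20978836-20981137, over AT1G56090 and AT1G56100, had the highest −log10 q of *morc6* line 1 and folds of 16.8, 16.6 and 17.7 against 18.0 and 17.6. At chr3:16055431-16057027, over AT3G44410, AT3G44420 and AT3G06815, the folds were 16.7, 16.8 and 17.9 in the *morc6* lines and 18.1 and 17.9 in the Col-0 lines. At chr4:4639681-4646515 they were 16.1, 16.7 and 16.5 against 16.5 and 17.5. At each of these sites the lines differed by less than 2 units of fold, and the values came close to the upper end of their list.

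The 34 sites called in the *morc6* lines only were led by a site that overlapped AGL83, a gene of the MADS-box transcription factor family. At chr5:20076162-20076972 the folds were 6.16, 9.70 and 6.66 in *morc6* lines 1, 2 and 3, with no peak in either Col-0 line. At chr2:1359439-1360265, upstream of AT2G04080, they were 3.50, 5.63 and 4.21. The pseudogene AT1G34904 followed with 3.12, 4.96 and 3.72 at chr1:12753257-12753805. At chr1:6583619-6584471, over TTN10 (predicted to encode a component of the GINS complex of DNA replication) and AT1G19070, the folds were 2.94, 3.87 and 3.28. At chr1:8275878-8277012, near TAR1, a relative of the tryptophan aminotransferase of auxin synthesis, they were 2.86, 4.87 and 3.81. Line 2 was the highest of the *morc6* lines at each of these 5 sites. A missing peak is not a fold of 0, since a list holds only what passed the caller's limit, so no fold between backgrounds is given for these sites.

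Over the 210 sites called in the Col-0 lines only the median of the highest fold was 2.59, compared with 3.43 over the 34 sites of the *morc6* lines only. The median of the lowest fold was 2.17 in both groups. Highest and lowest folds are taken over 2 lines for Col-0 and 3 for *morc6*, so these medians cannot be compared directly. At chr3:11584843-11585934, over the pseudogene AT3G29755, the folds were 10.5 and 10.3 in Col-0 lines 1 and 2, with no peak in any *morc6* line. At chr2:9333279-9334061, which overlapped the pseudogene AT2G21895 and the transcription factor gene WRKY59, they were 7.74 and 9.09. At chr1:20678856-20679669, near AT1G55380, they were 6.65 and 7.30. At chr3:11168130-11169085, with no gene within 1000 bp, they were 5.84 and 7.12, and at chr1:18698122-18698891, near the hexokinase-like gene HKL1, they were 5.82 and 7.98. These 5 sites and the 5 named for the *morc6* lines were chosen for their folds, so the values are a description. All 10 were again called in one background only when a peak had to cover 50% of the site, when −log10 q had to be at least 5, and when lists had equal size. Over the whole groups, 17, 19 and 28 of the 34 sites and 191, 105 and 85 of the 210 sites were called in the same way under these settings.

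An independent pair of libraries also held MORC6-Myc in floral tissue, labelled replicates 1 and 2, whose labels do not give the recipient background. The study describes its first MORC6-Myc ChIP-seq as made in *morc6-3* plants, without naming the replicates, and of the peak names inside both lists those of replicate 2 mention *morc6* and those of replicate 1 do not. They were not used to define the sites. Replicate 1 had 12249 peaks and replicate 2 4916. Of the sites of all lines, 96.1% were called in replicate 1 and 63.2% in replicate 2, compared with 67.0% and 27.4% of all sites. Of the 210 sites of the Col-0 lines only, 162 were called in replicate 1, with a median fold of 3.34 and a highest fold of 10.0, and 0 in replicate 2. Of the 34 sites of the *morc6* lines only, 10 were called in each. All 5 named sites of the Col-0 lines only were called in replicate 1, with folds of 7.16 to 10.0, and in replicate 2 none was. All 5 named sites of the *morc6* lines only were called in replicate 2, with folds of 1.86 to 3.15, and 2 of them in replicate 1. Replicates 1 and 2 thus also differed from each other at many of these sites.

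**Figure D3:**
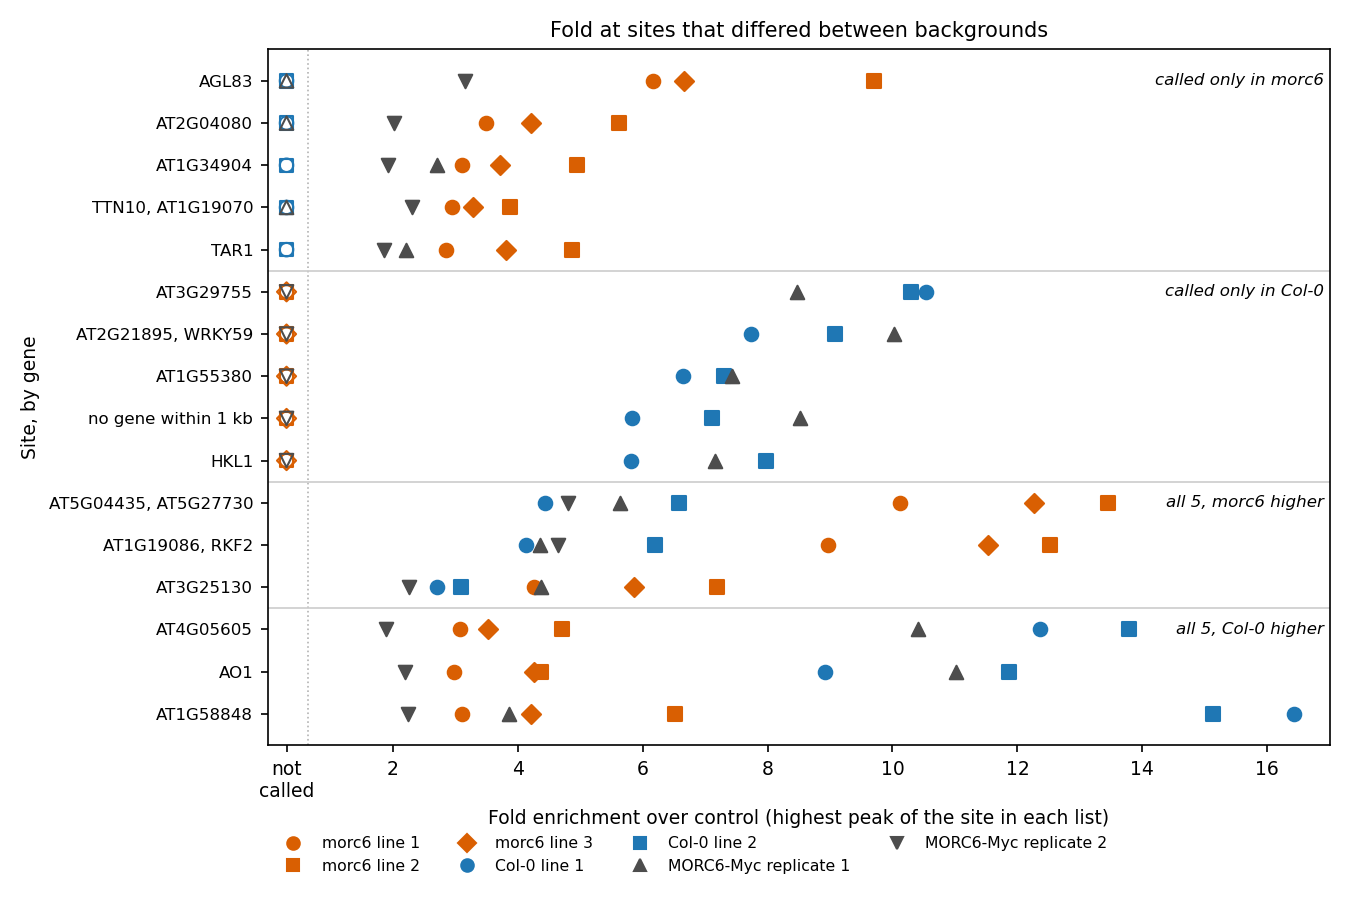
Fold enrichment over the control (x axis) at the named sites (y axis, by gene) in each of the 5 lines and in MORC6-Myc replicates 1 and 2 (grey triangles), with open symbols at the left for lists without a peak. At the 5 upper sites only *morc6* lines were called among the 5 lines, with folds of 2.86 to 9.70, and at the next 5 only Col-0 lines, with folds of 5.82 to 10.5. The lower 6 sites were called in all lines.

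At sites called in every line, a small share differed in fold enrichment between backgrounds. The log2 fold was centred on each line's median over the 5912 sites, since these medians were 2.90, 4.41 and 3.35 in *morc6* lines 1, 2 and 3 and 3.44 and 4.30 in Col-0 lines 1 and 2. With limma and Benjamini-Hochberg adjustment, 92 sites (1.56% of 5912) passed an adjusted p of 0.05, of which 35 (0.592%) were higher in the *morc6* lines and 57 (0.964%) higher in the Col-0 lines. At an unadjusted p under 0.05 there were 679. At 955 sites (16.2%) the centred fold of every *morc6* line was above that of every Col-0 line, and at 672 (11.4%) below. Of the 10 splits of the lines into 3 and 2, 1 gives each of these orders, and these counts were not tested. Without centring, where the median difference was -0.10, 14 sites were called, 2 of them higher in the *morc6* lines and 12 higher in the Col-0 lines. With the mean fold of a site's peaks in place of the highest 49 were called, without *morc6* line 2 41, and without Col-0 line 2 177. The called differences ranged from 0.45 to 1.27 on the log2 scale where the *morc6* lines were higher and from 0.43 to 1.71 where the Col-0 lines were higher. Of the called sites, 12 of the 35 (34.3%) and 17 of the 57 (29.8%) lay in gene-poor windows, beside 38.5% of the 5912 tested sites.

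**Figure D4:**
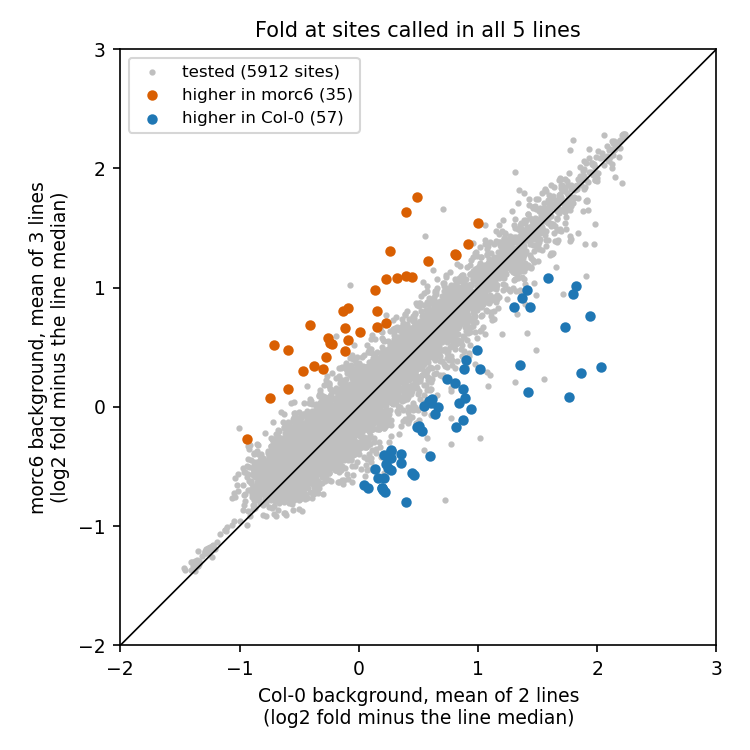
Mean centred log2 fold of the 3 *morc6* lines (y axis) against that of the 2 Col-0 lines (x axis) at the 5912 sites called in all lines, with the sites called by limma in colour. Most points lie along the diagonal, and the 35 sites higher in the *morc6* lines and the 57 higher in the Col-0 lines lie off it.

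The sites with the smallest p that were higher in the *morc6* lines lay on chromosomes 5, 1 and 3. At chr5:9818158-9820229, over the long non-coding RNA gene AT5G04435 and the protein-coding gene AT5G27730, the folds were 10.1, 13.4 and 12.3 in *morc6* lines 1, 2 and 3 and 4.43 and 6.58 in Col-0 lines 1 and 2. Every *morc6* line exceeded both Col-0 lines, with a log2 difference of 1.27 ± 0.12 (SE) and an adjusted p of 5.79e-07 (limma), which was 0.40 with the mean fold of the site's peaks. At chr1:6587551-6590098, over AT1G19086 and RKF2, a receptor-like kinase gene that neighbours MORC6, the folds were 8.97, 12.5 and 11.5 against 4.14 and 6.20. The log2 difference was 1.24 ± 0.12 (limma adjusted p = 5.79e-07). At chr3:9153588-9154435, over AT3G25130, the folds were 4.27, 7.18 and 5.87 against 2.71 and 3.09, with a log2 difference of 1.10 ± 0.13 (limma adjusted p = 1.61e-05, and 0.55 without centring).

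Of the sites higher in the Col-0 lines, the 3 with the smallest p lay on chromosomes 4, 5 and 1. The median difference over the called sites was of the same size in both directions, 0.75 on the log2 scale for the 35 and -0.75 for the 57. At chr4:5634263-5635774, over the long non-coding RNA gene AT4G05605, the folds were 3.07, 4.71 and 3.52 in *morc6* lines 1, 2 and 3 and 12.4 and 13.8 in Col-0 lines 1 and 2. The log2 difference was -1.68 ± 0.11 (SE, limma adjusted p = 1.42e-09). At chr5:7114379-7115732, near the aldehyde oxidase gene AO1, the folds were 2.99, 4.37 and 4.25 against 8.91 and 11.9. The log2 difference was -1.30 ± 0.13 (limma adjusted p = 5.79e-07, and 0.099 with the mean fold of the site's peaks). At chr1:21789425-21792118, over AT1G58848, the folds were 3.12, 6.51 and 4.21 against 16.4 and 15.1, with a log2 difference of -1.71 ± 0.15 (limma adjusted p = 4.47e-06).

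The site at AT1G58848 was 1 of 4 called sites among 11 sites of all lines between positions 21777967 and 21828459 of chromosome 1. At AT1G58807 the folds were 4.40, 7.99 and 4.92 in *morc6* lines 1, 2 and 3 and 12.7 and 12.7 in Col-0 lines 1 and 2. At AT1G59124 they were 4.27, 8.38 and 5.84 against 15.2 and 14.4, and at AT1G59218 2.77, 6.35 and 4.41 against 15.0 and 13.1. The 4 sites were higher in both Col-0 lines than in every *morc6* line, and the other 7 sites between them had log2 differences of -0.37 to -0.02 that limma did not call. The 300 bases around the summit were identical between AT1G58807 and AT1G59124 and between AT1G58848 and AT1G59218, and every 32-base word in them occurred elsewhere. Since 1 alignment was reported per read, reads of these copies cannot be assigned, and the 4 sites are not independent of each other. MORC6-Myc replicate 1 had a peak at 1 of these 4 sites, with a fold of 3.87, and replicate 2 had peaks at all 4.

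The called sites were also unequal between MORC6-Myc replicates 1 and 2. Relative to the median ratio of replicate 1 to replicate 2 over the 3665 sites of all lines that both called, 29 of the 34 measured sites that were higher in the *morc6* lines had a lower ratio, with a median of -0.56 on the log2 scale. Of the 33 measured sites that were higher in the Col-0 lines, 26 had a higher ratio, with a median of 0.46. The SD of this ratio over the 3665 sites was 0.36.

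The MORC6 gene itself (AT1G19100, chr1:6594883-6601355, plus strand) lay under a peak in every line. The fold was 15.3, 16.4 and 17.9 in *morc6* lines 1, 2 and 3 and 11.9 and 14.9 in Col-0 lines 1 and 2, and the site was 1 of 4 that shared the highest −log10 q of *morc6* line 3. The *morc6* lines were all above the Col-0 lines, with a log2 difference of 0.44 ± 0.16 (SE) and a limma adjusted p of 0.24. With the mean fold of the peaks at the site it was 1.18 (limma adjusted p = 0.46). Without *morc6* line 2 the difference was 0.61 (limma adjusted p = 0.023). In 4 of the lines a single peak ran from upstream of the gene to shortly before its end, with widths of 8313, 8584, 8904 and 8017 bp, whereas in Col-0 line 2 it was split into a first part of 4077 bp and 3 parts with folds of 2.05 to 2.21. A peak just past the gene had folds of 4.19, 5.35 and 6.21 in the *morc6* lines and 2.49 in Col-0 line 2, and was not called in Col-0 line 1. The transgene holds MORC6 sequence, so reads from the transgene and from the native locus cannot be told apart here. Upstream of the gene, the sites at TTN10 and RKF2 named above ended 10412 and 4785 bp before its start. The site at AT1G19050, which ended 14345 bp before it, had folds of 5.56, 8.19 and 7.94 in the *morc6* lines and 2.39 and 5.57 in the Col-0 lines (log2 difference of 1.10 ± 0.28, limma adjusted p = 0.20). The site at AT1G19160, which lay past the gene, had folds of 4.50, 8.20 and 7.45 against 5.65 and 8.56 (0.04 ± 0.14, limma adjusted p = 0.97).

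**Figure D5:**
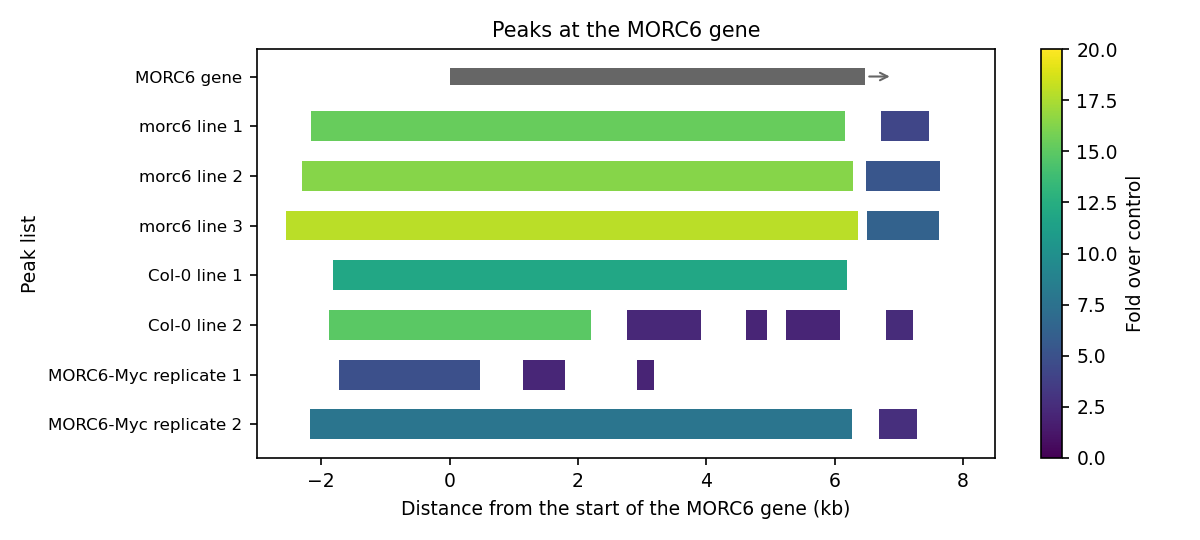
Extent of each peak (bars) at the MORC6 gene in the 5 lines and in MORC6-Myc replicates 1 and 2, against distance from the start of the gene (kb), with colour for the fold over the control. The gene is drawn in grey in its direction of transcription. The main peak reached a fold of 15.3 to 17.9 in the *morc6* lines and 11.9 and 14.9 in the Col-0 lines.

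Of 14 genes of the RdDM machinery, 9 had a site over the gene or within 500 bp of its start, and 5 had one of all lines. Over all 37899 annotated nuclear genes these shares were 33.9% and 16.2%. NRPD1 and DRD1 were called in *morc6* line 2 alone. CLSY1, a remodeller that brings Pol IV to its targets, had folds of 15.0, 16.6 and 15.5 in *morc6* lines 1, 2 and 3 and 14.9 and 14.4 in Col-0 lines 1 and 2. DCL3, the Dicer enzyme of the pathway, had 4.52, 6.28 and 4.48 against 7.24 and 6.06. SUVH9, which binds methylated DNA and helps to recruit Pol V, had 3.24, 6.26 and 4.75 against 5.34 and 5.68. The other RdDM genes with a site of all lines were DMS3, with folds of 2.51 to 3.30, and SPT5L, with folds of 1.90 to 3.51. Of the 7 MORC genes, MORC5, MORC6 and MORC7 had a site of all lines. Of the 6 genes of the MOM1 complex, PHD1 had 2 sites of all lines, the stronger with folds of 4.05, 5.88 and 4.21 against 3.21 and 4.15. PIAL1 had folds of 2.08, 2.48 and 6.12 in the *morc6* lines and 3.47 in Col-0 line 2, and no peak in Col-0 line 1.

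Of 8 genes known for silencing by DNA methylation or for imprinting, 5 had a site of all lines, beside the 16.2% of all genes. ROS1, a DNA glycosylase that removes methylated cytosine, had folds of 9.99, 12.4 and 11.5 in *morc6* lines 1, 2 and 3 and 10.5 and 13.3 in Col-0 lines 1 and 2. QQS, an orphan gene that affects the allocation of carbon and nitrogen, had 16.5, 8.95 and 17.4 against 8.55 and 10.6, so that *morc6* line 2 lay with the Col-0 lines. SDC, an F-box gene repressed by DNA methylation at its promoter, had 3.19, 3.53 and 2.99 against 4.17 and 4.53. FWA, an imprinted homeodomain gene, had 2.48, 4.50 and 3.72 against 2.84 and 3.98. EPF2, an epidermal patterning factor gene, had 2 sites of all lines, with folds of 2.21 to 4.12 at one and 2.02 to 2.85 at the other. MEA, FIS2 and PHE1 had no site. At the 17 sites of all lines that overlapped 14 of the listed genes, limma called 0 differences between backgrounds. The limma adjusted p was 0.072 at PHD1 and above at the others, and 3 sites had an unadjusted p under 0.05. Over all 5912 sites of all lines, limma called 92 (1.56%), and 679 had an unadjusted p under 0.05. The site of MORC5 lay upstream of that gene without overlapping it and is not among the 17. Among markers of tissue, RBCS1A and LHCB1.3, highly expressed in leaves, each had a site but none of all lines. Of the floral organ genes AG, AP3 and PI, AG and AP3 had sites. Only AP3 had one of all lines, with folds of 2.22 to 3.86. Over all annotated nuclear genes, 33.9% had a site and 16.2% one of all lines.

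The genes at these sites were then followed in RNA-seq of *morc6-3* and Col-0 whole seedlings (12 days old, 3 replicates each, with totals of 16969456 to 25378868 counts). The seedlings carried no transgene and differ in tissue from the flower buds used for ChIP-seq. MORC6 had 13.4, 10.6 and 11.4 CPM in Col-0 and 5.09, 5.13 and 4.35 CPM in *morc6-3*, a log2 fold change of -1.28 ± 0.13 (SE, edgeR adjusted p = 0.00035). The libraries of both genotypes did not overlap, and the transcript was still measured in the mutant. Among 19609 genes tested and matched to the annotation, 585 (2.98%) passed edgeR with an adjusted p below 0.05 and a log2 change beyond 1 in either direction, 182 higher (0.928%) and 403 lower (2.06%) in *morc6-3*. Of 2895 tested genes at a site of all lines, 140 (4.84%) were called, 64 higher (2.21%) and 76 lower (2.63%). The share of higher genes was 2.21% beside 0.928% over all genes, and that of lower genes 2.63% beside 2.06%. Of the genes at sites of one background only, 1 of 19 tested was called for the *morc6* lines and 4 of 88 for the Col-0 lines.

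SDC and QQS were among the genes at a site of all lines that rose in *morc6-3*. SDC had 0.42, 0.29 and 0.43 CPM in Col-0 and 43.3, 62.0 and 86.6 CPM in *morc6-3*, a log2 fold change of 7.35 ± 0.41 (edgeR adjusted p = 0.00034). QQS had 2.45, 2.17 and 2.29 CPM in Col-0 and 50.8, 50.5 and 48.8 CPM in *morc6-3* (4.44 ± 0.10, edgeR adjusted p = 2.01e-09). The pseudogene AT5G27845 rose from 0.04, 0.19 and 0 CPM to 34.8, 47.8 and 64.7 CPM, with site folds of 2.06 to 3.04. AT4G04293, also a pseudogene, rose from 0.25, 0.43 and 0.36 CPM to 52.5, 52.1 and 48.0 CPM, with site folds of 2.55 to 3.53. AT5G28888, a pseudogene with site folds of 9.04 to 12.6, had 0 counts in the 3 Col-0 libraries and 85 in *morc6-3*, at least 36.9-fold higher against a floor of 3 counts over the group. AT1G36675, with site folds of 5.97 to 9.45, had 1 count in Col-0 and 158 in *morc6-3*, a ratio of CPM of 206 with an exact 95% counting interval of 36.4 to 8173. The intervals and floors cover counting error only.

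Genes at a site of all lines that fell in *morc6-3* were led by ASN1, a glutamine-dependent asparagine synthetase, with 398, 462 and 856 CPM in Col-0 and 45.1, 67.2 and 61.9 CPM in *morc6-3*. Its log2 fold change was -3.30 ± 0.38 (edgeR adjusted p = 0.0064), and its site had folds of 5.87, 7.91 and 5.47 in the *morc6* lines and 6.13 and 7.22 in the Col-0 lines. STP1, a hexose transporter, had 776, 855 and 1372 CPM in Col-0 and 150.1, 210.0 and 218 CPM in *morc6-3* (-2.38 ± 0.28, edgeR adjusted p = 0.0050). LRX3, a leucine-rich repeat extensin of the cell wall, had 220, 246 and 273 CPM and 40.5, 61.1 and 65.0 CPM (-2.15 ± 0.18, edgeR adjusted p = 0.00036). PP2-A5, of the phloem protein family, and AT2G35290 fell by 3.04 and 2.29 on the log2 scale (edgeR adjusted p = 0.010 and 0.0012). In each of the genes named here all *morc6-3* libraries lay on one side of all Col-0 libraries. Of the listed genes that were tested, MORC6 alone fell. None of the 14 tested RdDM genes and 6 tested genes of the MOM1 complex was called by edgeR, with median log2 fold changes of -0.02 and -0.01, beside a median of 0.00 over all genes.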

How the data were processed

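For ChIP-seq, the authors aligned reads to TAIR10 with bowtie2 2.4.2, allowing no mismatch and reporting 1 alignment per read, removed duplicates with SAMtools 1.15 and called peaks with MACS2 2.1.2 against a Col-0 control. The deposited lists give each peak's fold ratio over the control and −log10 q, but no read numbers. The deposited RNA-seq values are expected counts per gene that the authors made with RSEM, rounded here to whole counts, and the deposited TPM values served only to describe expression levels and gave no printed value.

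Rows of 1 interval were merged and the 5 nuclear chromosomes kept. Peaks were merged into sites across the 5 lines (overlap of at least 1 bp), and a site's fold in a line was that of its highest peak. Values per line were compared by exact permutation tests. Log2 folds at sites of all lines, centred on each line's median, were compared with limma 3.58.1 (trend, robust), and RNA-seq counts with edgeR 4.0.16 (TMM, CPM of at least 1 in at least 2 of 6 libraries, quasi-likelihood test), in R 4.3.3 and Python 3.11.15 (pandas 2.3.3, numpy 2.4.6, scipy 1.17.1). Genes, promoters and sequence came from RefSeq TAIR10.1, which gave names for 32835 of the 64790 IDs of the RNA-seq table. Transposon positions are not in that annotation. Some summit sequences are not reported here. Procedures were tested on simulated data.

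Line numbers follow the labels. The peak names inside 3 of the 5 lists carry other line numbers, by which no line of one background shares a number with the other. To see whether equal numbers mark pairs, centred folds were taken as deviations from the mean of their background at each site. These deviations correlated at 0.03 for *morc6* line 1 and Col-0 line 1 and at 0.11 for both lines 2. The deviations of the Col-0 lines mirror each other, so this check is limited. The numbers were not taken as pairs, nor were those of the RNA-seq replicates (-0.02 to 0.07 for such deviations).

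Members and gene lists were chosen with earlier results of these data known. Named were MORC6 and the listed genes, the 5 sites with the highest minimum fold in each pattern of lines, the 3 sites of smallest limma p in each direction, the 5 called genes at sites of all lines with the largest change in each direction, and each line's site of highest −log10 q. AT1G58807, AT1G59124, AT1G59218, AT1G19050 and AT1G19160 were added after their values were seen. Alternatives were a −log10 q of at least 5, unmerged rows, 50% coverage of a site, equal list sizes, other windows, uncentred or mean folds, DESeq2 1.42.0, RLE factors, no filter, a replicate block and leaving out each line or replicate. Leaving out 3 to 4 Mb of chromosome 2 was added after seeing the data.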

Additional observations from a re-analysis of the deposited data

Results flagged for a closer look

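Peaks on the organelle genomes, which no comparison used, were present in every list. Rows on the chloroplast genome numbered 271, 95 and 334 in *morc6* lines 1, 2 and 3 and 322 and 347 in Col-0 lines 1 and 2. Rows on the mitochondrial genome numbered 461 in *morc6* line 1, 15 in *morc6* line 3 and 9 in Col-0 line 1, and 0 in the other lists. Both backgrounds had such rows, and the list of *morc6* line 1 differed from the others.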

How the results depend on the processing

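Of 42 values of the comparisons over lines under alternatives, 35 kept their direction. The difference in peak number (*morc6* minus Col-0, -910.5) became 210.5 without *morc6* line 1 and 1290 without Col-0 line 2, with a range of -3111 to 1290 over lines left out. The difference in the share of peaks in gene-poor windows (-0.05 percentage points) was 0.53 with a −log10 q of at least 5, 0.22 with a limit of 30% on gene coverage, and -5.31 to 5.20 with single lines left out, including 2.11 without *morc6* line 2. The share near gene starts (1.16) ranged from -1.93 without Col-0 line 1 to 4.25. The count of sites of the *morc6* lines only ranged from 40 to 584 over lines left out and was 120 with lists of equal size, and that of the Col-0 lines only ranged from 216 to 1619. With a line left out, a condition of the pattern is dropped, so higher counts follow from the rule. limma called 14 sites without centring, 49 with mean folds and 41 to 177 with lines left out.

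With the replicate block on line number, limma called 212 sites, and the MORC6 site passed (log2 difference of 0.35, limma adjusted p = 0.030), as it did without *morc6* line 2 (0.61). The lines share only a number. The named sites at AT5G27730 (0.74) and AO1 (-0.90) were lost with mean folds and that at AT3G25130 (0.96) without centring. The RNA-seq counts of called features were 405 to 757 with replicates left out, against 612, and 652 with the replicate block, in which edgeR called every named gene again. Read depth was not taken into account, and a list holds only peaks that passed the caller's limit. A missing peak is therefore not evidence that MORC6-Myc was absent. The causes of these changes were not tested.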
